A study of Mus musculus with 10 samples.

Results

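The comparison set Lgr5-high Ki67-low cells, the stem cell fraction with the dimmer Ki67 reporter (2 arrays), against Lgr5-medium Ki67-high cells, progenitors with the brighter one (4 arrays). These 6 of the 10 arrays of the series were chosen by the group named in their titles, and the compared groups differ in both sort markers. All groups are cells sorted from the intestines of mice that carry Lgr5-EGFP-ires-CreERT2, in which the Lgr5 promoter drives GFP, and Ki67-TagRFP, in which RFP is fused to the endogenous Ki67 protein. GFP was high or medium and RFP high or low. The remaining groups of 2 arrays each, Lgr5-high Ki67-high and Lgr5-medium Ki67-low, share 1 marker level with either compared group and gave the single-marker differences. The labels give neither age nor sex. They do not state how many animals stand behind a group, so a p-value here reflects only how far the deposited arrays scatter, part of which can be technical. The names stem cell and progenitor follow the sort gates, and how fast the cells divide was not measured.

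Lgr5 is a receptor for R-spondins, which strengthen Wnt signalling, and it marks the columnar stem cells between the Paneth cells at the crypt base. Their daughters move up the crypt, lose Wnt signals, divide rapidly as progenitors and become absorptive enterocytes or secretory cells. Ki67 is a nuclear protein that accumulates through S, G2 and M phase and is degraded in G1 and in resting cells. Columnar stem cells divide too, and cells that have left the cycle to differentiate lose Ki67, so a low Ki67 reporter alone does not mark a stem cell.

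Expression was read as log2 units of the deposited array values for 18820 named genes, so a difference of 1 is a 2-fold difference. The tested difference, Lgr5-high Ki67-low minus Lgr5-medium Ki67-high, is called here the double difference. It was tested with limma, and a gene was called at a Benjamini-Hochberg adjusted p under 0.05. Lgr5 checked the first label. It stood at 10.02 and 10.43 in the Lgr5-high Ki67-low arrays and at 7.39, 7.56, 7.29 and 7.32 in the Lgr5-medium Ki67-high arrays. The groups were far apart, by 2.83 ± 0.14 (SE), which is 7.13-fold (limma adjusted p = 3.5e-05). Mki67, the gene of the Ki67 protein, was not separated in the same way. Its levels were 10.06 and 10.10 against 10.04, 10.18, 10.27 and 9.83, and its double difference was -0.0025 ± 0.12 (SE, limma adjusted p = 0.99). The Ki67 sort, which reads a fused protein, thus left no difference in Mki67 RNA past the threshold in this comparison.

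Transcripts of the sex chromosomes set the arrays apart in a way the labels do not describe. Xist, which is expressed from the inactive X chromosome of females, was at 3.62 and 3.19 in replicates 1 and 2 of Lgr5-medium Ki67-high but at 9.55 and 8.42 in replicates 3 and 4, and at 9.28 and 10.63 in the Lgr5-high Ki67-low arrays. The Y-linked gene Eif2s3y was between 7.34 and 8.65 on 9 arrays and at 3.41 on Lgr5-high Ki67-high replicate 1. Xist had the largest double difference of all genes (3.76) and was not called (limma adjusted p = 0.23). Of the 10 arrays, 7 carried both kinds of transcript, and their fit, chosen after seeing the data, keeps 2 arrays in each compared group.

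The compared groups differed in 1003 of the 18820 genes (5.33%). Of these, 512 were higher in Lgr5-high Ki67-low cells (2.72%) and 491 were lower (2.61%). The higher genes included 24 of 28 measured markers of crypt base columnar stem cells and 15 of 27 Wnt targets. These lists share called members, namely Lgr5, the sort marker itself, Ascl2, Axin2, Sp5, Sox9, Cd44, Tnfrsf19, Rnf43 and Znrf3. The lower genes included 12 of 26 genes of sterol and fatty acid synthesis, 10 of 52 enterocyte markers and 9 of 62 mitotic genes. The differences among the higher genes were larger. Their median was 0.67, against -0.54 among the lower ones, and 110 of the 131 called genes that differed at least 2-fold (0.696% of all genes) were higher. The arrays of the compared groups did not overlap in any called gene, as was also true of 27.9% of all genes tested. Centring the arrays turned the split between the directions to 426 higher and 656 lower, while quantile normalization gave 557 and 349.

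The calls leaned on Lgr5-high Ki67-low replicate 2. In 867 of the 1003 genes that array lay farther from the Lgr5-medium Ki67-high mean than replicate 1 did, though both arrays lay on the same side of it in all 1003. Without replicate 2, 33 genes were called (0.175%), 31 higher and 2 lower (Mfsd7a and Phlda2), all of them among the 1003, with 1921 genes at an unadjusted p under 0.05. Without replicate 1, 665 were called. Without Lgr5-medium Ki67-high replicate 2 the count was 532, without replicate 4 of that group 1314, and without either Lgr5-high Ki67-high array 587. In the 7 arrays with both Xist and Y-linked transcripts, 14 genes were called, all 14 among the 1003, with 2522 at an unadjusted p under 0.05, and all 1003 kept their direction. Since the compared groups did not overlap in any called gene, both results on direction were fixed in advance. They are no measure of stability. A group with a single array left was assumed to vary like the others. The plot of the differences by replicate shows the lean toward replicate 2.

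**Figure D1:**
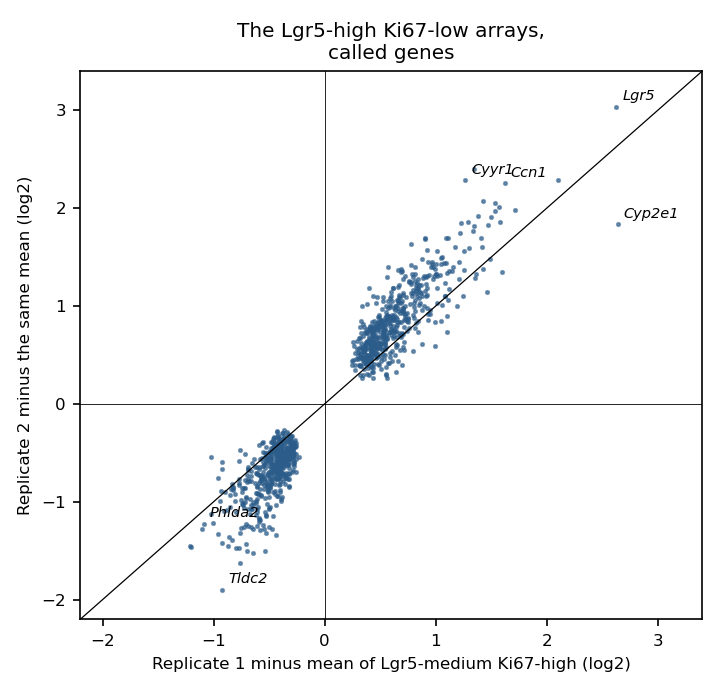
Each point is 1 of the 1003 called genes. The horizontal axis gives Lgr5-high Ki67-low replicate 1, and the vertical axis replicate 2, each minus the mean of the 4 Lgr5-medium Ki67-high arrays in log2 units, and the line marks equal values. All points lie where both differences have the same sign, as the lack of overlap between the groups requires. Of these, 867 lie farther from 0 in replicate 2.

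Among the higher genes that the naming rule selected by size, Lgr5 came first. Cyp2e1, a cytochrome P450, followed at 7.80 and 7.001 against 4.88, 5.19, 4.64 and 5.93, a difference of 2.24 ± 0.32 (SE, limma adjusted p = 0.0058). Gkn3, a gastrokine family member, was at 9.18 and 9.35 against 7.14, 7.02, 6.55 and 7.57, higher by 2.19 ± 0.23 (SE, limma adjusted p = 0.0018). The naming rule took only genes without overlap between the groups. Cyp2e1 was the rarer case in which replicate 1 was the higher array. Slc1a2, a glutamate transporter, was higher by 1.87, the cytoskeletal adaptor Sorbs2 by 1.85, the secreted protein gene Ccdc3 by 1.80, Cyyr1 by 1.78, the transcriptional regulator Lbh by 1.75 and the urea transporter Slc14a1 by 1.75. The Wnt target Tnfrsf19 (Troy), a receptor of the tumour necrosis factor family, stood at 6.56 and 6.995 against 5.06, 4.95, 4.82 and 5.11. Its difference was 1.79 ± 0.13 (SE, limma adjusted p = 0.00028). Igfbp4, which binds insulin-like growth factors, was at 8.66 and 8.94 against 7.13, 7.10, 6.996 and 7.11. The 4 Lgr5-medium Ki67-high arrays were tightly grouped, and it was higher by 1.72 ± 0.12 (SE, limma adjusted p = 0.00027).

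Ccn1, which encodes a matrix protein and responds early to stimulation, was the least steady of these genes. Its levels were 9.82 and 10.45 against 7.88, 8.59, 8.89 and 7.43, and its difference of 1.94 ± 0.48 (SE) only just passed (limma adjusted p = 0.048). It was called in 3 of the 10 fits that each leave out 1 array. These left out Lgr5-medium Ki67-high replicate 3 or either of the Lgr5-medium Ki67-low arrays. Elsewhere its adjusted p rose to at most 0.43, without Lgr5-high Ki67-low replicate 2. Without that array Lgr5, Cyp2e1, Sorbs2, Tnfrsf19, Slc14a1 and Igfbp4 were called, with adjusted p up to 0.048, while Gkn3 (0.051), Ccdc3 (0.059), Slc1a2 (0.11), Cyyr1 (0.12) and Lbh (0.16) were not.

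The lower genes named for size were Tldc2, Alppl2, Pqlc3, Trex2, Slc28a3, Bcl2l15, Phlda2, Capg, Nqo1, Slc40a1, Myl7 and Slc13a1. Tldc2, of the TLDc domain family, had the largest fall. Its levels were 6.50 and 5.52 against 7.16, 7.61, 7.33 and 7.60, a difference of -1.41 ± 0.23 (SE, limma adjusted p = 0.01). Alppl2, an alkaline phosphatase, was at 4.62 and 4.37 against 5.74, 5.81, 5.78 and 5.98 and differed by -1.33 ± 0.18 (SE, limma adjusted p = 0.005). Phlda2, a small protein with a pleckstrin homology domain, was the tightest of these genes. It stood at 5.88 and 5.75 against 6.94, 7.04, 6.85 and 7.05, lower by -1.16 ± 0.10 (SE, limma adjusted p = 0.00073).

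Several of the other lower genes encode transporters and enzymes. The nucleoside transporter Slc28a3 differed by -1.18, the quinone reductase Nqo1 by -1.14, the iron exporter ferroportin (Slc40a1) by -1.12 and the sulphate transporter Slc13a1 by -1.11. The exonuclease Trex2 differed by -1.19 and the actin capping protein Capg by -1.14. Of the 12 lower genes, Phlda2 was called without Lgr5-high Ki67-low replicate 2 (adjusted p = 0.025) and the other 11 were not, at adjusted p from 0.056 (Myl7) to 0.43 (Slc13a1). Trex2 also missed the threshold without replicate 1 of that group (adjusted p = 0.06), and Pqlc3 without Lgr5-medium Ki67-high replicate 2. Slc40a1 was called in 6 and Slc13a1 in 2 of the 10 leave-one-out fits, and both missed it without either Lgr5-high Ki67-high array or without Lgr5-medium Ki67-high replicate 1. Slc13a1 further missed it when Lgr5-high Ki67-low replicate 1, Lgr5-medium Ki67-high replicate 3 or either of the Lgr5-medium Ki67-low arrays was left out.

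**Figure D2:**
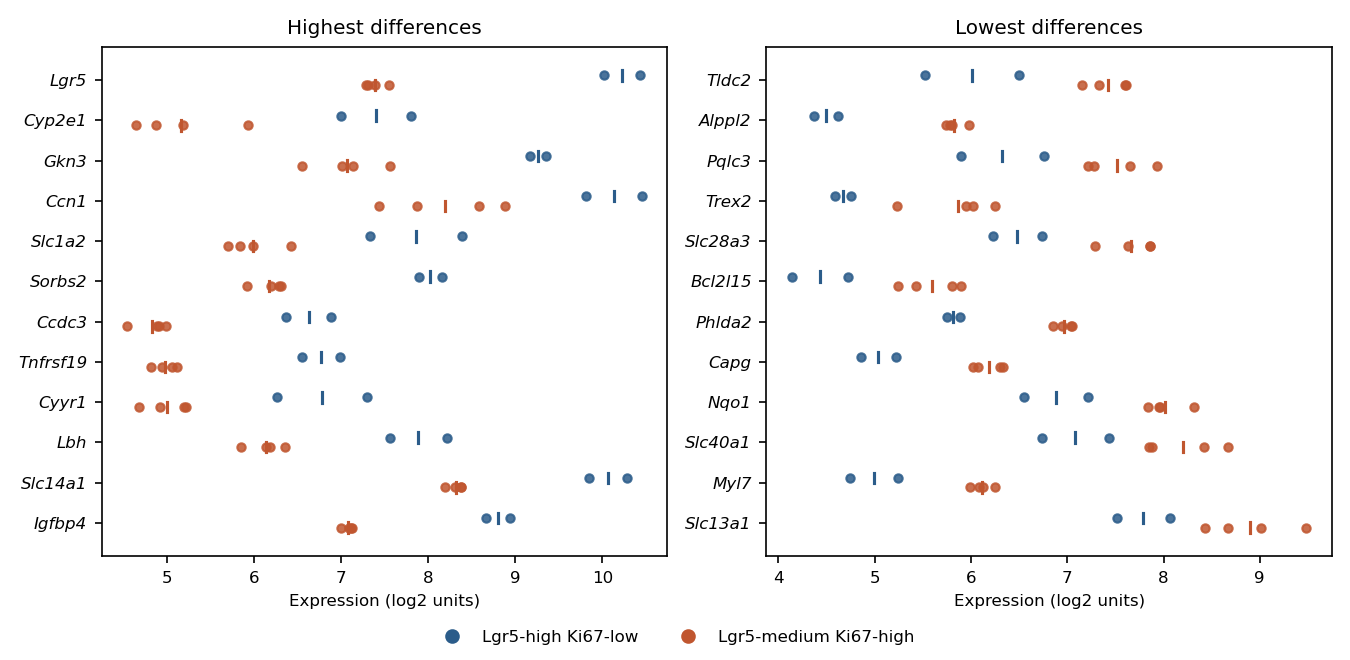
Log2 expression (horizontal axes) of the 12 genes named for the largest double difference in each direction. Points are arrays and short vertical bars group means, blue for Lgr5-high Ki67-low (n = 2) and orange for Lgr5-medium Ki67-high (n = 4). Having no overlap between the groups was a condition for naming these genes. Their differences run from 2.83 for Lgr5 to -1.11 for Slc13a1.

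The double difference was next set against the differences made by 1 marker. It is the sum of an Lgr5 step and a Ki67 step, and the path can run through Lgr5-high Ki67-high or through Lgr5-medium Ki67-low cells. It therefore exceeds all 4 single-marker differences when the means of both middle groups lie between those of the compared groups. These comparisons share arrays, so they are not independent of each other. The single-marker comparisons called 176 genes for Lgr5 at high Ki67 (0.935%), 534 for Lgr5 at low Ki67 (2.84%), 674 for Ki67 at medium Lgr5 (3.58%) and 1 for Ki67 at high Lgr5 (Rdh18-ps, 0.00531%).

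The double difference exceeded all 4 in 764 of the 1003 called genes (76.2%), 413 higher and 351 lower. The same ordering of means, called or not, held for 21.8% of all genes, and 4.06% of all genes were both called and so ordered. Called genes were picked for a wide gap between the compared groups, and middle means fall more readily within a wide gap. The share among called genes is therefore a description and no test. The excess was mostly small. Over the single-marker difference nearest to it, the double difference gained a median of 0.17 in the higher and 0.11 in the lower genes. The Lgr5 step was usually the longer one. Through Lgr5-high Ki67-high it was larger than the Ki67 step in 380 of the 512 higher and 411 of the 491 lower genes, and through Lgr5-medium Ki67-low in 365 and 305. The number of called genes beyond all 4 single-marker differences was 30 without Lgr5-high Ki67-low replicate 2, 430 without Lgr5-medium Ki67-high replicate 2, and 453 and 448 without replicates 1 and 2 of Lgr5-high Ki67-high. The plot of both routes shows these steps.

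**Figure D3:**
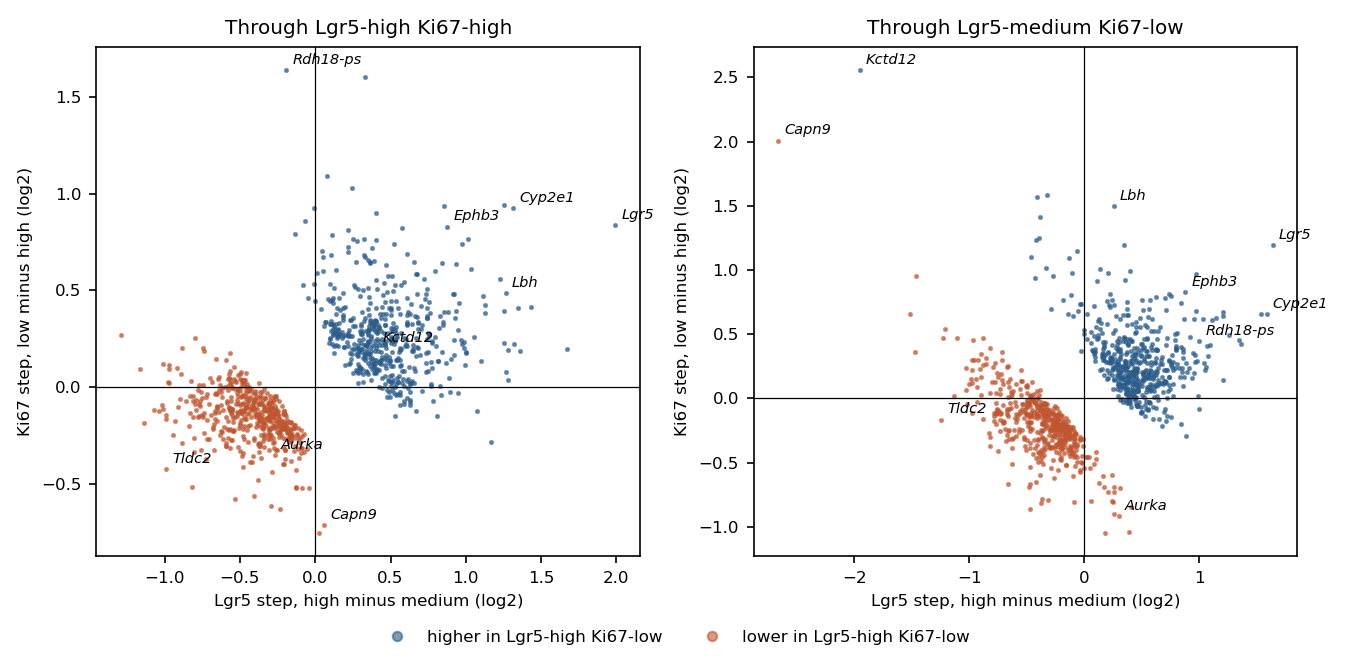
Each point is a called gene, blue if higher and orange if lower in Lgr5-high Ki67-low cells. The horizontal axis gives the Lgr5 step and the vertical axis the Ki67 step in log2 units, through Lgr5-high Ki67-high (left) and Lgr5-medium Ki67-low (right). Genes beyond all 4 single-marker differences have steps of the same sign in both panels, as Lgr5 does, while Kctd12 and Capn9 lie apart on the right.

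The excess was above 0.5 in 14 genes, namely Alppl2, Cbs, Cyp2e1, Cyyr1, Ephb3, Ets2, Fgfr4, Gkn3, Igfbp4, Lgr5, Nav1, Phlda1, Sorcs2 and Sox9. Ets2, Phlda1 and Sox9 fall outside the naming rule by excess and are named here after their values were seen. Alppl2 was the single lower gene of the 14. Ephb3, a receptor for the ephrins that border the stem cell zone, had the most even steps. It was at 8.13 and 8.55 in Lgr5-high Ki67-low, 7.43 and 7.59 in Lgr5-high Ki67-high, 7.86 and 7.06 in Lgr5-medium Ki67-low and 6.65, 6.92, 6.79 and 6.17 in Lgr5-medium Ki67-high arrays. Both middle groups lay between the compared ones, its double difference was 1.71 ± 0.25 (SE, limma adjusted p = 0.0058), and its single-marker differences were all 0.83 or 0.88, none of them called. Sox9, a transcription factor of the crypt base, behaved likewise, with a double difference of 1.26 and single-marker differences from 0.57 to 0.69.

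Fgfr4, a fibroblast growth factor receptor, was higher by 1.57 with an excess of 0.61, the microtubule-binding Nav1 by 1.65 with an excess of 0.61, and Cbs, a cystathionine synthase, by 1.40 with an excess of 0.60. Among the lower genes the excess reached 0.52 in Alppl2, followed by Rflnb (0.36), Hsd11b2, which inactivates glucocorticoids (0.34), Capg (0.34), Prxl2b (0.33), the glutathione transferase Gstp3 (0.33), Tmem50b (0.31), Vstm5 (0.30), the calcium-binding S100a16 (0.30) and the convertase Pcsk6 (0.30). With Lgr5-high Ki67-low replicate 2 left out, the double differences of Fgfr4 (adjusted p = 0.027) and Cbs (0.028) were called. Those of Ephb3 (0.13), Sox9 (0.19), Nav1 (0.1), Ets2 (0.28), Phlda1 (0.22) and the 10 lower genes just named (from 0.051 for Pcsk6 to 0.44 for Tmem50b) were not. Rflnb also missed the threshold without replicate 1 of that group (0.062). Tmem50b was called in 3 of the 10 leave-one-out fits, which left out Lgr5-high Ki67-low replicate 1 or Lgr5-medium Ki67-high replicates 1 or 4.

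An excess over a single-marker difference has a test of its own, because it is itself the other step of the path. Both steps through Lgr5-medium Ki67-low were called in 9 genes (0.0478% of all genes), Lgr5, Sorcs2, Sorbs2, Igfbp4, Slc12a2, Stra6l, Rgmb, Msi1 and Marveld1, all higher. No gene had both steps called through Lgr5-high Ki67-high. There the limma test of the Ki67 step alone called 1 gene, with 853 of the 18820 at an unadjusted p under 0.05. That cutoff passes about 0.05 of all genes where nothing differs, and 853 is below this share. In Sorcs2, a sorting receptor, the Lgr5-high Ki67-low arrays were at 7.24 and 7.23, the Lgr5-medium Ki67-low arrays at 6.46 and 6.27 and the Lgr5-medium Ki67-high arrays at 5.74, 5.88, 5.66 and 5.69. The 3 groups were fully separate. Its double difference was 1.49 ± 0.10 (SE, limma adjusted p = 0.00026), the Ki67 step 0.62 (0.0056) and the Lgr5 step 0.87 (0.0022).

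Igfbp4 took steps of 0.61 and 1.11 on that route, Lgr5 of 1.20 and 1.64, and Sorbs2 of 0.64 and 1.21. The sodium-potassium-chloride cotransporter Slc12a2 was at 11.52 and 11.70 against 10.54, 10.51, 10.57 and 10.44, with a double difference of 1.10 ± 0.08 (SE, limma adjusted p = 0.00031). Stra6l, a relative of the retinol receptor, was higher by 1.55, Rgmb, a co-receptor for bone morphogenetic proteins, by 1.65, the RNA-binding protein Msi1 by 1.58 and Marveld1 by 0.85. The double difference of Marveld1 missed the threshold without Lgr5-high Ki67-low replicate 2 (adjusted p = 0.051), and those of the other 8 passed it. The count of 9 rested on several arrays. It was 1 and 3 without replicates 1 and 2 of Lgr5-medium Ki67-low, 5 without Lgr5-high Ki67-low replicate 2, either Lgr5-high Ki67-high array or Lgr5-medium Ki67-high replicates 2 or 3, and 15 without replicate 4 of that group, and 1 gene met it in the 7 arrays with both Xist and Y-linked transcripts.

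In the Ki67 difference among Lgr5-high cells only Rdh18-ps was called, so no other gene could be called against both middle groups. This pseudogene of the retinol dehydrogenase family met that rule. It stood at 4.89 and 5.19 in Lgr5-high Ki67-low arrays, at 3.25 and 3.55 in Lgr5-high Ki67-high, at 4.25 and 3.83 in Lgr5-medium Ki67-low and at 3.55, 3.65, 3.63 and 3.56 in Lgr5-medium Ki67-high arrays. Lgr5-high Ki67-low was above all others. Its double difference of 1.45 ± 0.14 (SE, limma adjusted p = 0.0011) was smaller than its Ki67 difference among Lgr5-high cells, 1.64 (adjusted p = 0.022), so it did not exceed all 4. Its double difference was called in all 10 leave-one-out fits, but the count against both middle groups was 0 without Lgr5-high Ki67-high replicate 1, either Lgr5-high Ki67-low array or Lgr5-medium Ki67-high replicates 1, 2 or 3. Whether its probes also match related genes was not examined, and in the 7 arrays with both Xist and Y-linked transcripts its double difference missed the threshold (adjusted p = 0.0674).

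**Figure D4:**
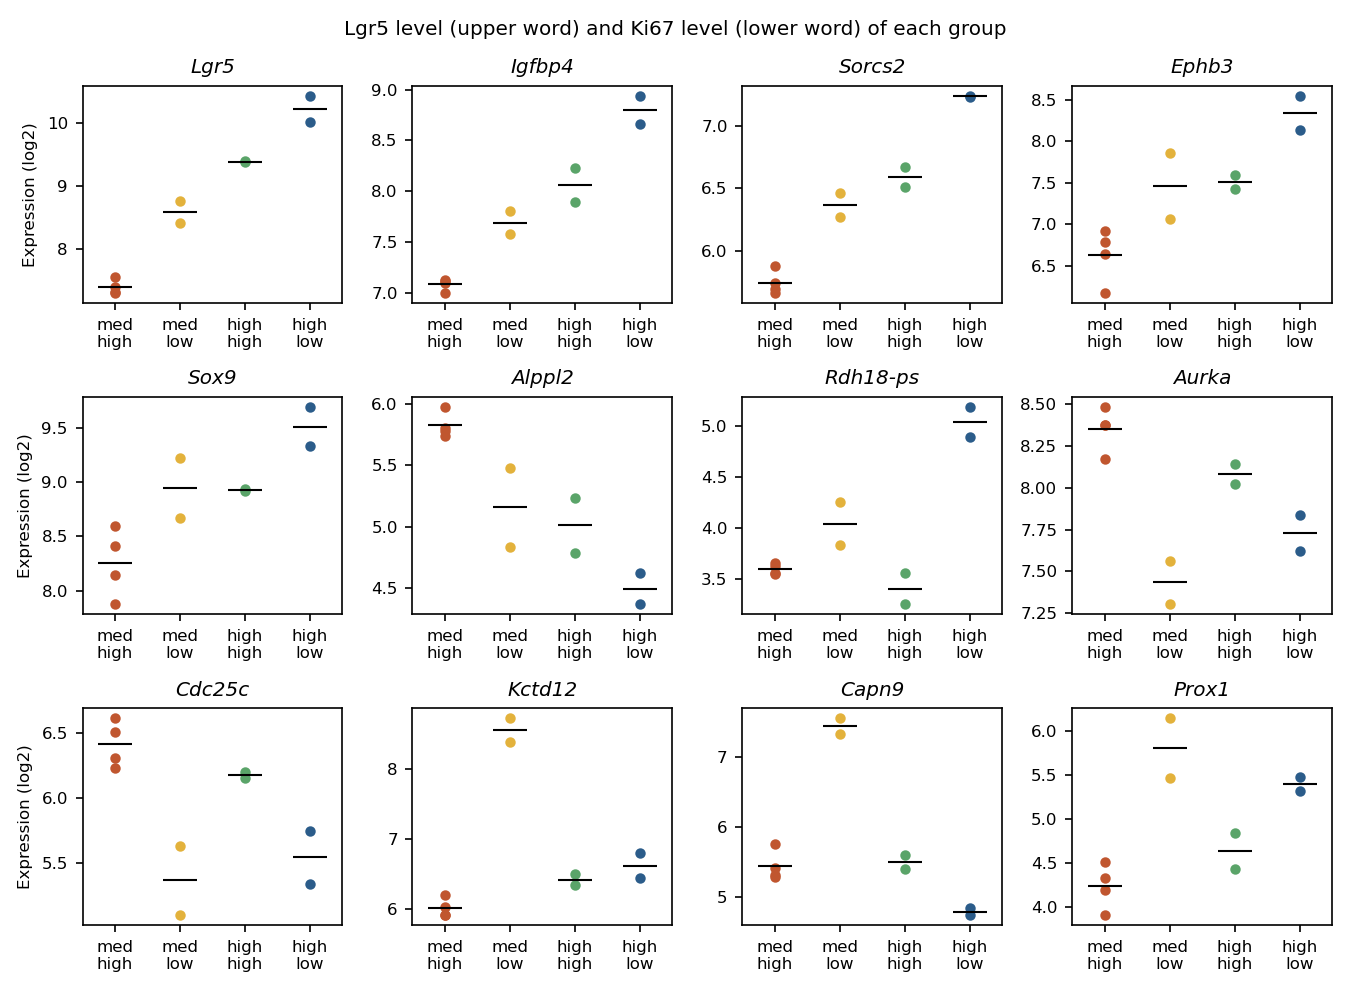
Log2 expression in the 4 sorted groups for 12 genes, with points for arrays and bars for group means (n = 4, 2, 2 and 2 from left to right) and a scale for each gene that does not start at 0. The words under each panel give the Lgr5 and then the Ki67 level. Lgr5, Igfbp4, Sorcs2, Ephb3, Sox9 and Alppl2 run in 1 direction from left to right or share the middle, while in Aurka, Cdc25c, Kctd12, Capn9 and Prox1 the mean of Lgr5-medium Ki67-low lies outside the interval between the means of the compared groups.

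Gene lists were then described by their counts and medians, beside the median over all genes of 0.01. Each count is to be read against the 2.72% of all genes called higher and the 2.61% called lower. The lists were chosen with earlier results of these data known, and the stem cell list holds the sort marker Lgr5. The counts are therefore descriptions and no independent check of the sort labels. Of 28 measured markers of crypt base columnar stem cells, 24 were higher and 0 lower, with a median of 1.17. The stem cell transcription factor Ascl2 was at 8.29 and 8.53 against 7.02, 6.999, 7.10 and 7.58, higher by 1.24 ± 0.17 (SE, limma adjusted p = 0.005). Olfm4, a secreted glycoprotein and classical marker, was at 12.54 and 12.67 against 12.16, 12.15, 11.90 and 12.14 and was higher by 0.52 ± 0.10 (SE, limma adjusted p = 0.016). Both genes were separate between the groups, but the gap in Olfm4 was narrow. Of the 28 markers, 24 exceeded all 4 single-marker differences and 23 of these were called. Among all genes 21.8% exceeded all 4, and 4.06% were also called. Without Lgr5-high Ki67-low replicate 2 the median was 1.03 and 10 markers were called. Ascl2 (adjusted p = 0.12) and Olfm4 (0.25) then missed the threshold, while Smoc2, a matrix-associated marker with a difference of 1.03, kept its call (0.027).

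Of 27 Wnt targets and feedback genes, 15 were higher and 0 lower, with a median of 0.81. Besides Lgr5, Tnfrsf19 and Ephb3 these included Axin2 and the ubiquitin ligases Rnf43 and Znrf3, which dampen Wnt signalling, by 1.16, 1.27 and 0.74, the secreted Wnt antagonist Sfrp5 by 1.31 and the proto-oncogene Myc by 0.81. Axin2 stood at 8.88 and 9.21 against 8.04, 8.002, 8.11 and 7.37, and the last of these arrays, replicate 4, was its lowest. Sp5, a transcription factor induced directly by Wnt signals, was at 6.04 and 6.06 against 4.94, 5.15, 4.75 and 4.98, higher by 1.09 ± 0.11 (SE, limma adjusted p = 0.0014). Sp5 was at 5.34 and 5.22 in Lgr5-high Ki67-high and at 5.20 and 5.03 in Lgr5-medium Ki67-low arrays. Lgr5-high Ki67-low cells thus stood above all 3 other groups, but the Ki67 difference among Lgr5-high cells was not called for Sp5. The fit without Lgr5-high Ki67-low replicate 2 called 3 genes of the list, Lgr5, Tnfrsf19 and Sp5 (adjusted p = 0.036). Axin2 (0.18), Rnf43 (0.19), Sfrp5 (0.051), Myc (0.32) and Znrf3 (0.45) were not. Myc also missed the threshold when replicate 1 of either compared group was left out. Znrf3 was called in 3 of the 10 leave-one-out fits, those that left out Lgr5-high Ki67-low replicate 1 or Lgr5-medium Ki67-high replicates 3 or 4.

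The promoter of Sp5 is shown because it holds the letters that TCF and LEF factors, which carry the Wnt signal on DNA, recognise. CTTTGAT and CTTTGTT were searched on both strands in the RefSeq promoters, 250 bases before to 50 after each gene start, and 5 of 21 promoters of the Wnt list held a match (23.8%) against 7.86% of all 18155 promoters of 14749 measured genes. The share was 9.24% in promoters of the higher and 4.41% in those of the lower genes. The promoters of Axin2 and Ephb3 held no match in this window. The Sp5 promoter, at chr2:70474673-70474972 on the plus strand of GRCm38.p6 and written 5′ to 3′ with the matches in capitals, held 2.
Sp5: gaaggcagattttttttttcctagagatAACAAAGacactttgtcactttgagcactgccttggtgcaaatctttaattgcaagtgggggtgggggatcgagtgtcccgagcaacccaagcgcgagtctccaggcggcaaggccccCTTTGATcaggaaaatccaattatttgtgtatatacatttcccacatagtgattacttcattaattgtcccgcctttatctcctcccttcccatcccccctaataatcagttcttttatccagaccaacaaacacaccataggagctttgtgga

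The reserve stem cell list, proposed markers of rarer stem cells outside the columnar type, split. Prox1 (1.16), Lrig1 (0.88) and Clu (0.72) were higher of 10 measured, while Bmi1 (0.09), Tert (0.24) and Hopx (0.35) were not called. Prox1, a homeobox transcription factor, was at 5.32 and 5.47 against 4.19, 4.33, 4.52 and 3.91 but reached 6.15 and 5.46 in Lgr5-medium Ki67-low arrays, so it did not exceed the Ki67 difference among Lgr5-medium cells. Lrig1, which restrains epidermal growth factor receptors, was also the single called gene of 18 in that pathway. That share was near the 5.33% of all genes called. These 3 genes missed the threshold without Lgr5-high Ki67-low replicate 2 (adjusted p from 0.21 to 0.31), and Prox1 also without replicate 1 (0.054).

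Of 16 genes of the Notch pathway, which keeps stem cells undifferentiated through contact with their neighbours, 5 were higher and 1, the feedback gene Nrarp (-0.44), was lower. Among all genes 2.72% were higher and 2.61% lower. The receptor Notch1 was at 8.62 and 8.997 against 7.66, 7.79, 8.03 and 7.63, higher by 1.03 ± 0.13 (SE, limma adjusted p = 0.0044). The receptor-modifying enzyme Lfng was higher by 0.66 and the regulator Dtx4 by 0.74, while the receptor Notch2 (0.37) and the ligand Dll1 (0.10) were not called. Of 10 Eph receptors and ephrins, which sort crypt cells by position, the receptors Ephb3, Epha7 (1.003) and Epha4 (0.71) and the ligand Efna4 (0.64) were higher. The ligand Efnb2, at 6.92 and 6.50 against 7.54, 7.98, 7.48 and 7.30, was lower by -0.86. In the bone morphogenetic protein list Rgmb was higher and the pathway's feedback inhibitor Smad6 (-0.68) and target Id3 (-0.48) were lower, of 19 measured.

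Of these Notch, ephrin and bone morphogenetic protein genes, Rgmb alone was called without Lgr5-high Ki67-low replicate 2 (adjusted p = 0.027). The others named as called were at 0.095 (Notch1) to 0.34 (Smad6). Nrarp was called in 1 of the 10 leave-one-out fits, without Lgr5-medium Ki67-high replicate 4, Id3 in 2, without replicates 1 or 4 of that group, and Epha4 in 3, without its replicates 1, 2 or 4. Smad6 also missed the threshold without replicates 2 or 3 of that group. In the 7 arrays with both Xist and Y-linked transcripts, Rgmb passed (adjusted p = 0.04878).

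The cell cycle lists differed in direction, where 2.72% of all genes were higher and 2.61% lower. Of 62 genes of G2 phase and mitosis, 9 were lower and 0 higher, with a median of -0.30 and 59 members below 0. Of 46 genes of S phase and DNA replication, 9 were higher and 1 lower, with a median of 0.21 and 39 members above 0. Aurka, the spindle kinase, was at 7.84 and 7.62 against 8.17, 8.37, 8.38 and 8.49, a difference of -0.62 ± 0.12 (SE, limma adjusted p = 0.017). The phosphatase Cdc25c, which starts mitosis, differed by -0.87, the cyclin Ccnb2 by -0.56, Cdca3, which helps to trigger mitotic entry, by -0.52, and the chromosomal passenger Birc5 by -0.39. The cyclin-dependent kinase Cdk1 was not called (-0.41). The groups did not overlap in 38 of the 62 genes, set against 27.9% of all genes.

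None of the 62 mitotic genes exceeded all 4 single-marker differences, against 21.8% of all genes. The Ki67 difference among Lgr5-medium cells was larger, with a median of -0.66 and 49 genes lower (0.93% of all genes were), and 59 of the 62 double differences did not exceed it. The Lgr5 difference at low Ki67 ran the other way, with a median of 0.37. Aurka shows this order, since its lowest arrays were the Lgr5-medium Ki67-low ones at 7.30 and 7.56. On the mean over the list, the Lgr5-high Ki67-low arrays were at 7.99 and 7.87, the Lgr5-medium Ki67-high arrays between 8.17 and 8.29 and the Lgr5-medium Ki67-low arrays at 7.47 and 7.67. The mitotic RNA of Lgr5-high Ki67-low cells thus lay between that of the Lgr5-medium fractions.

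The S phase genes were highest in Lgr5-high Ki67-low cells on the mean of their list, at 8.06 and 8.22, against 7.86 to 7.99 in Lgr5-medium Ki67-high arrays. Mcm4, a subunit of the replicative helicase, was at 8.73 and 8.87 against 8.15, 8.21, 8.32 and 8.17, higher by 0.59 ± 0.08 (SE, limma adjusted p = 0.0051). Mcm2, of the same helicase, was higher by 0.55, the licensing factor Cdt1 by 0.53, the polymerase subunit Pole by 0.65 and the transcription factor E2f1 by 0.60. E2f2 of the same family was lower instead, at 7.44 and 7.31 against 7.95, 8.29, 8.31 and 7.86 (-0.73 ± 0.13 SE, limma adjusted p = 0.015). No gene of the S phase or mitotic list was called without Lgr5-high Ki67-low replicate 2, where the medians were 0.14 and -0.24, and the named members were at adjusted p from 0.12 (Mcm4) to 0.43 (Ccnb2). Birc5 was called in 5 and Ccnb2 in 4 of the 10 leave-one-out fits, and both missed the threshold when any of replicates 1 to 3 of Lgr5-medium Ki67-high was left out. Birc5 also missed it without Lgr5-high Ki67-low replicate 1 and Ccnb2 without either Lgr5-high Ki67-high array. Cdc25c missed it without Lgr5-medium Ki67-high replicate 2, Mcm2 without replicate 1 and E2f1 without either of these. Cdt1 was called in 5 fits and Pole in 2, and both missed it without Lgr5-high Ki67-low replicate 1, either Lgr5-high Ki67-high array or Lgr5-medium Ki67-high replicate 1. Pole missed it further without replicate 2 of that last group or either of the Lgr5-medium Ki67-low arrays.

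The promoters of 3 lower mitotic genes are shown because they carry the paired letters typical of genes expressed late in the cycle, a CHR element (TTTGAA) near the start and CCAAT boxes before it. Either was searched on both strands, each counted by itself whether or not it overlapped the other. CHR letters stood in 40 of 56 promoters of the mitotic list (71.4%) against 14.8% of all promoters, and CCAAT in 45 of 56 (80.4%) against 37.5%. Among promoters of all lower genes the shares were 12.1% and 38.1%. Aurka, at chr2:172370521-172370820 on the minus strand of GRCm38.p6, held 1 CHR and 2 CCAAT matches. Ccnb2, at chr9:70421505-70421804 on the minus strand, held 2 and 3, and Cdca3, at chr6:124829926-124830225 on the plus strand, held 1 and 3. In Ccnb2 the first CHR match stands ahead of all CCAAT matches, away from the start, and only the later one has the arrangement described. Birc5 held neither in its RefSeq window. All are written 5′ to 3′ along the gene with the matches in capitals.
Aurka: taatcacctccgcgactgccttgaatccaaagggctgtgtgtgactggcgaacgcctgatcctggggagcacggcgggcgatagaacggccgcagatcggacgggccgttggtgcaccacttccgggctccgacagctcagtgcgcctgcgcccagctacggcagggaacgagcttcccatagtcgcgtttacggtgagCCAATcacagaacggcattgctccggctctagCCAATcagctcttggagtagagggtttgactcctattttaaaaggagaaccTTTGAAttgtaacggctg
Ccnb2: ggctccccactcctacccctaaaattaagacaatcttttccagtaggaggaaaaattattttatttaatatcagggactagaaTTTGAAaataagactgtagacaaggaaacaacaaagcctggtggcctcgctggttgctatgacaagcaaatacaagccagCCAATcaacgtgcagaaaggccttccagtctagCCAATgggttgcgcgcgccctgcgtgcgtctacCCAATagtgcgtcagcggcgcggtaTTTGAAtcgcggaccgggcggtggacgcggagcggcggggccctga
Cdca3: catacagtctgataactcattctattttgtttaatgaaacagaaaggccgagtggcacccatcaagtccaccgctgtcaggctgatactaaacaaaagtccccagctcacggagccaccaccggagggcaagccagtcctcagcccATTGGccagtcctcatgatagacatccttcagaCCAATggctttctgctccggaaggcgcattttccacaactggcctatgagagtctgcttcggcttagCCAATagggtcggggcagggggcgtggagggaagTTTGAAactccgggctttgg

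Inhibitors of the cell cycle did not rise together. Of 26 measured, Trp53inp1, a p53-induced gene, was higher (0.87) and Cdkn2b (-0.87), Cdkn1a (-0.63) and Sesn1 (-0.48) were lower. Shares over all genes were 2.72% higher and 2.61% lower. Cdkn1a, which encodes the kinase inhibitor p21, was at 7.32 and 7.25 against 7.68, 8.15, 8.08 and 7.76, while the Lgr5-medium Ki67-low arrays were highest at 8.51 and 8.27. Of 25 genes of homologous recombination and the DNA damage checkpoint, Atm (0.63), Brca2 (0.53) and Topbp1 (0.34) were higher and 0 lower. With that second Lgr5-high Ki67-low array, replicate 2, left out, these genes were at adjusted p from 0.14 (Atm) to 0.46 (Topbp1). Trp53inp1 was called in 5, Cdkn1a and Brca2 in 4, Sesn1 in 3 and Topbp1 in 0 of the 10 leave-one-out fits, and all 5 missed the threshold without either Lgr5-high Ki67-high array and without 2 or more of the Lgr5-medium Ki67-high arrays. Of 39 ribosome biogenesis genes limma called 0, with 12 at an unadjusted p under 0.05.

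Few markers of mature secretory cells were called between the compared groups, where 2.72% of all genes were higher and 2.61% lower. Of 41 enteroendocrine markers 1 was higher (Cacna1a, a calcium channel, by 1.02), with a median of -0.01 that changed sign in 5 alternative fits. Of 33 tuft cell markers 1 was higher (Kctd12, by 0.60) and of 30 goblet markers 1 was lower (the protease Capn9, by -0.66). Of 22 Paneth markers limma called 0, with 1 at an unadjusted p under 0.05. The tuft median was 0.14 with 28 of 33 members above 0, and the Paneth median 0.27 with 17 of 22 above 0. The goblet median was -0.17 with 22 of 30 members below 0. Chga, the hormone granule protein, was at 7.38 and 7.503 against 7.84, 7.04, 6.42 and 7.41, and Dclk1, the tuft cell kinase, at 5.29 and 5.69 against 5.32, 4.79, 4.89 and 5.77. The groups overlapped in both genes. The Lgr5-medium Ki67-low arrays stood apart, with Chga at 9.90 and 10.12 and Dclk1 at 8.23 and 8.84, and 35 of the 41 enteroendocrine and 28 of the 33 tuft markers were higher there than in Lgr5-medium Ki67-high cells, set against 2.65% of all genes. The goblet genes Muc2, Clca1 and Tff3 had double differences of -0.02, -0.33 and -0.29 and the Paneth gene Lyz1 of 0.14, none of them called.

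Of these markers, 0 enteroendocrine, 0 tuft, 2 goblet and 0 Paneth genes exceeded all 4 single-marker differences, against 21.8% of all genes. By the limma interaction test, 7 of the called genes also departed from the sum of the single-marker differences that start from Lgr5-medium Ki67-high. They were Capn9, Kctd12, Krt23, Mfsd7a, Rdh18-ps, Spats2l and Tppp3. That is 0.698% of the called genes, near the 1.04% of all genes that the interaction test called (0.0106% with a positive and 1.03% with a negative departure). Krt23, a keratin, was higher by 1.25 but reached 6.97 and 6.92 in Lgr5-medium Ki67-low arrays, above its 6.51 and 6.72 in Lgr5-high Ki67-low. Among secretory commitment factors Sox4 (1.17) and Mnx1 (0.65) were higher of 26, while Atoh1, which starts the secretory fate, and Neurog3, which starts the enteroendocrine one, were at -0.29 and 0.07 and not called. When Lgr5-high Ki67-low replicate 2 was left out, Krt23 and Mfsd7a passed (adjusted p = 0.027 and 0.024), and Cacna1a (0.12), Sox4 (0.14), Mnx1 (0.096), Tppp3 (0.16), Capn9 (0.3), Spats2l (0.31) and Kctd12 (0.42) did not. Capn9 was called in 7, Kctd12 in 4 and Spats2l in 3 of the 10 leave-one-out fits. All 3 missed the threshold without Lgr5-medium Ki67-high replicate 1, Capn9 and Spats2l without Lgr5-high Ki67-low replicate 1, and Kctd12 and Spats2l without either Lgr5-high Ki67-high array or without Lgr5-medium Ki67-high replicates 2 or 3.

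Of 52 markers of absorptive enterocytes, 10 were lower in Lgr5-high Ki67-low cells (2.61% of all genes were), 0 higher and 42 not called, with a median of -0.51 and 49 members below 0. Khk, the first enzyme of fructose breakdown, was at 9.05 and 8.66 against 9.71, 9.67, 9.65 and 9.75, lower by -0.84 ± 0.11 (SE, limma adjusted p = 0.0049). The cholesterol importer Npc1l1 differed by -0.77, the sodium-proton exchanger Slc9a3 by -0.79, the amino acid transporter Slc7a9 by -0.90 and the brush border phosphatase Alpi by -0.73. Sucrase-isomaltase (Sis, -0.50) and the fatty acid-binding Fabp1 (-0.27) were not called. Of these genes Khk, Npc1l1 and Slc7a9 exceeded all 4 single-marker differences and Slc9a3 and Alpi did not. The mean over the list was 8.78 and 8.31 in the Lgr5-high Ki67-low arrays and 9.28, 8.89, 8.61 and 9.35 in the Lgr5-medium Ki67-high arrays, so the groups overlapped. Leaving out Lgr5-high Ki67-low replicate 1 gave a median of -0.76. Without Lgr5-high Ki67-low replicate 2 the median was -0.26 and 0 markers were called, with Khk at an adjusted p of 0.087 and the other named genes from 0.12 to 0.37. Alpi was called in 5 of the 10 leave-one-out fits and also missed the threshold when Lgr5-high Ki67-low replicate 1, either Lgr5-high Ki67-high array or Lgr5-medium Ki67-high replicate 1 was left out.

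Genes of sterol and fatty acid synthesis had the largest lower share of all lists, 12 of 26, set against 2.61% of all genes lower. Their median was -0.53. Sqle, a rate-limiting epoxidase of cholesterol synthesis, was at 7.72 and 7.68 against 8.45, 8.42, 8.67 and 8.42, lower by -0.79 ± 0.10 (SE, limma adjusted p = 0.0048). Later enzymes of the same path differed alike, Msmo1 by -0.95, Cyp51 by -0.83 and Lss by -0.80, as did the earlier Idi1 by -0.55 and Mvk by -0.75. The desaturase Scd2 differed by -1.11, while Hmgcs1, an early enzyme of the path, was at -0.52 and not called. For Sqle most of the difference lay in the Lgr5 step at high Ki67, which was -0.71 (limma adjusted p = 0.023). Of the 26 genes, 15 exceeded all 4 single-marker differences, 8 of them called. Among all genes 21.8% exceeded all 4, and 4.06% were also called. Without Lgr5-high Ki67-low replicate 2 the median was -0.46, and 0 genes were called, with Sqle at an adjusted p of 0.096 and Scd2 at 0.29. Mvk (0.055), Lss and Scd2 also missed the threshold without replicate 1 of that group. Scd2 missed it further without Lgr5-medium Ki67-high replicates 1 or 2, and Lss without these or either Lgr5-high Ki67-high array.

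Of 43 measured genes of oxidative phosphorylation, 6 were lower and 0 higher, set against 2.61% of all genes lower. All 43 lay below 0, with a median of -0.27. Ndufs7 and Ndufs8, subunits of complex I, differed by -0.41 and -0.46, Cyc1 of complex III by -0.43 and Atp5g1 of the ATP synthase by -0.37. Ndufs7 was at 10.87 and 10.86 against 11.21, 11.29, 11.33 and 11.27, with all 4 single-marker differences at -0.20 or -0.21. Of the 43 genes, 27 exceeded all 4, against 21.8% of all genes. In glycolysis the phosphofructokinase Pfkp (-0.76) and the mutase Pgam1 (-0.44) were among 3 lower genes of 24. Of these 24, 6 lay above 0, the highest being the hexokinase Hk2 (1.03), which was not called and is named after its value was seen. In fatty acid oxidation the transcription factors Creb3l3 (-0.78) and Ppara (-0.50) and the electron carrier Etfb (-0.32) were the 3 lower of 20. In the unfolded protein response the chaperone factors Sdf2l1 (-0.63), Dnajb11 (-0.44) and Pdia6 (-0.41) were the 3 lower of 33. Of 16 transcription factors of intestinal identity, Hnf4g (-0.48) was the single one called, a share near the 5.33% of all genes called in either direction.

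None of these metabolic, chaperone and identity genes was called without Lgr5-high Ki67-low replicate 2, where their adjusted p ran from 0.19 (Pfkp) to 0.45 (Hnf4g) and the oxidative phosphorylation median was -0.18. Pfkp and Sdf2l1 were called in the other 9 leave-one-out fits. Ndufs7, Ndufs8 and Pgam1 were called in 8, Atp5g1 in 7, Cyc1 in 5, Hnf4g, Pdia6 and Dnajb11 in 4, Creb3l3 and Ppara in 3 and Etfb in 1. Ndufs7, Pgam1 and Atp5g1 also missed the threshold without Lgr5-high Ki67-low replicate 1, and Ndufs8 and Atp5g1 without Lgr5-medium Ki67-high replicate 2. The remaining genes missed it without either Lgr5-high Ki67-high array, among others.

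Lists of cells and states outside the epithelial hierarchy were checked for signal. Of 35 immune markers 2 were lower, Itgam (-0.88) and Cd79b (-0.61), and 0 higher, where 2.61% of all genes were lower. The other way, 29 of the 35 lay above 0, with a median of 0.12 that was 0.23 without Lgr5-medium Ki67-high replicate 4. Ptprc, which marks all leukocytes, stood at 4.78 and 4.83 against 4.93, 4.37, 4.25 and 4.81. The mean over the list was 4.19 and 4.21 against 3.90 to 4.36, and of 25 stromal and endothelial markers limma called 0, with 2 at an unadjusted p under 0.05 and means of 3.52 and 3.56 against 3.49 to 3.54. Immediate early and dissociation stress genes had 1 of 28 called, Ccn1. Their median was 0.31 (0.12 without Lgr5-high Ki67-low replicate 2, 0.55 without replicate 1 and 0.19 without Lgr5-medium Ki67-high replicate 4). Their mean over the list was 7.90 and 8.32 against 7.59, 8.01, 8.21 and 7.19, so the groups overlapped in a list that ranged widely within each. Their part in the results, like that of the enterocyte and Xist levels, was not tested. Fos was at 9.31 and 9.68 against 8.75, 9.36, 9.68 and 8.42. Cd74, of antigen presentation, was higher by 0.66, and limma called 0 of 33 interferon response genes, with 8 at an unadjusted p under 0.05. Itgam (adjusted p = 0.14), Cd79b (0.37) and Cd74 (0.42) missed the threshold without Lgr5-high Ki67-low replicate 2, and Cd79b was called in 1 and Cd74 in 2 of the 10 leave-one-out fits. In these bulk samples fewer cells of a type and less RNA per cell cannot be told apart.

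**Figure D5:**
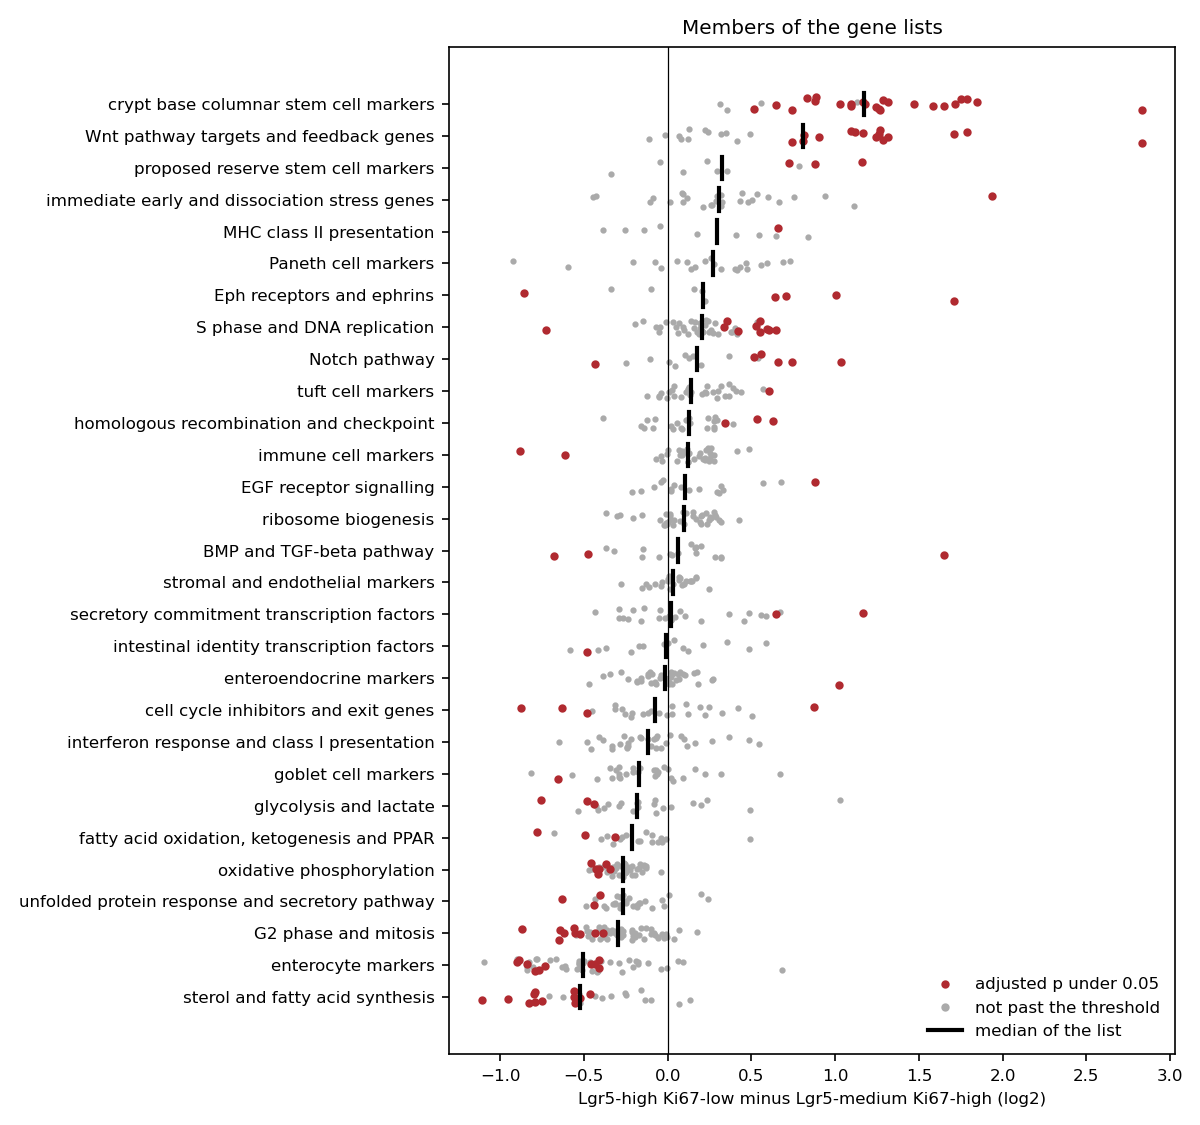
Each row is a gene list and each point a measured member, with the double difference in log2 units on the horizontal axis, red for called genes, grey for the others and a black bar for the list's median. The medians run from 1.17 for the crypt base columnar stem cell markers to -0.53 for sterol and fatty acid synthesis.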

How the data were processed

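Gene expression of 10 sorted samples was measured on arrays of the Affymetrix type Mouse Gene ST 1.1, per the labels. The deposited table gives 1 value per probe set and array (35556 probe sets), read as log2 because values lie between 1.16 and 13.8. MAS5 and GCOS appear in the submitters' processing notes. For background correction, normalization and log base the sources used here give nothing, and values were used as the authors deposited them (array medians 4.23 to 4.40). Each gene was represented by its brightest probe set among 21218 with 1 symbol, 1881 with several and 12457 unnamed ones being left out, which gave 18820 genes. Symbols come from the platform's annotation, checked by Entrez number against RefSeq (GRCm38.p6, 21185 matched). Promoter sequences are RefSeq's of that build, with a match for 14749 of the genes.

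Group means were fitted over all 10 arrays by limma 3.58.1 in R 4.3.3 (6 residual degrees of freedom, median standard error of the double difference 0.11), with eBayes and Benjamini-Hochberg adjustment over all genes within each contrast. The scripts were tested on simulated data. The number of arrays limits the precision. Genes named were, per direction, the 12 largest called differences and the 10 largest excesses with a mean above the median gene (5.06) and no overlap, leaving out predicted genes and receptor families, then list members by p or list order, and genes passing a tested excess. Members and the 29 lists (823 of 901 entries measured) were chosen with earlier results of these data known. The main fit did not pair samples by replicate number. Deviations were correlated above 0.1 in 0 of 12 same-numbered pairs (from -0.30 to 0.013). Pairs between groups of 2 arrays repeat the same value, so these are not separate checks. Other numberings were not tested, and the check cannot exclude a pairing. Alternatives were other fits, scalings, filters, probe set rules, array weights, a replicate block, leaving out each array, and 7 arrays chosen by sex-linked transcripts after seeing the data.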

Additional observations from a re-analysis of the deposited data

Results flagged for a closer look

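Among the 147 genes examined in this way, 12 had 1 of the 4 Lgr5-medium Ki67-high arrays far from the other 3, and chance alone flags about 1 in 20 groups. Replicate 4 was the far array for Axin2 (7.37), Bmi1 (6.79), Tert (5.63) and Cdkn2b (7.89). Replicate 3 was the far array for Olfm4 (11.90), Sqle (8.67), Mfsd7a (4.83) and Eif2s3y (8.07), replicate 2 for Pcsk6 (5.80), Idi1 (9.57) and Krt23 (5.61), and replicate 1 for Mmp7 (10.32).

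In 18 of the genes the Ki67 difference among Lgr5-high cells departed from that among Lgr5-medium cells by the limma interaction test. This is also the departure of the double difference from the sum of the single-marker differences that start from Lgr5-medium Ki67-high. Over all genes the same test called 196 (1.04%), 2 positive and 194 negative. Rdh18-ps was the one with a positive departure (1.19, adjusted p = 0.0243). Negative departures were found in the enteroendocrine genes Chga (-3.32), Chgb (-3.26) and Neurog3 (-1.93) and the tuft cell genes Dclk1 (-3.44), Trpm5 (-3.24), Pou2f3 (-2.59) and Kctd12 (-2.36). The goblet and secretory genes Capn9 (-2.72), Muc2 (-1.78), Clca1 (-1.95), Tff3 (-1.38) and Atoh1 (-2.02) also departed, as did Vim (-2.81), Krt23 (-0.99), Mfsd7a (-1.14), Spats2l (-1.17) and Tppp3 (-0.85). Their adjusted p ran from 0.00048 (Capn9) to 0.0374 (Tppp3).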

How the results depend on the processing

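With only the compared groups in the fit, 392 genes were called (259 higher, 133 lower). With every row of the value table the counts were 413 (258 and 155), with 350 called genes beyond all 4 single-marker differences, 4 by both steps through Lgr5-medium Ki67-low and 0 against both other groups. With a minimum log2 difference of 1 they were 131 (110 and 21), with 122 beyond all 4. Array weights gave 789 lower genes. The replicate block gave 306 (206 and 100), with 249 beyond all 4, 2 by both steps and 0 against both other groups. The 7 arrays with both Xist and Y-linked transcripts gave 14 (12 and 2), with 13 beyond all 4, 1 by both steps and 0 against both others. Leaving out each array gave 33 to 1314 called genes (31 to 643 higher, 2 to 671 lower), 30 to 944 beyond all 4, 1 to 15 by both steps through Lgr5-medium Ki67-low, 0 through Lgr5-high Ki67-high and 0 to 1 against both other groups. Centring lowered the median of all genes by 0.061. Of the 113 named genes that were called, none changed direction in these fits. Where arrays were only left out this was fixed in advance, as the compared groups did not overlap in these genes. The block lost 54 of them, the fit without Lgr5-high Ki67-low replicate 2 lost 95 and the 7 arrays lost 104. The cause of these changes was not tested. Leaving arrays out also lowers the residual degrees of freedom. The medians of the enteroendocrine, interferon, intestinal identity, secretory factor, stromal and cell cycle inhibitor lists, all within 0.12 of 0, changed sign in 1 or more fits.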
